A study of Homo sapiens with 4 samples.

Results

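Mediator is the large complex that carries signals from DNA-bound transcription factors to RNA polymerase II at promoters and enhancers. Its head and middle modules touch the polymerase, MED14 is the scaffold that joins the modules, the tail binds activators, and a kinase module built on CDK8 or CDK19 docks reversibly and blocks the polymerase's place. Mediator is abundant at super-enhancers, the large enhancer clusters that the series title ties to CFL1. The 33 genes described here are the human Mediator subunits with the kinase module included. They were picked by gene symbol alone from the 59885 genes of the authors' deposited table, and 33 of 33 were found there. By module they were 7 genes of the head, 9 of the middle, 1 scaffold, 5 of the tail, 4 of the upper tail (MED27 to MED30, assigned to the head in older schemes) and 7 of the kinase module.

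Total RNA was sequenced from cells labelled PANC-1, a line established from a human pancreatic ductal adenocarcinoma, in 2 control libraries and 2 libraries with CFL1 knocked out. CFL1 encodes cofilin-1, which severs actin filaments. The labels give no guide, clone, culture or passage for either group and name no treatment, and a p-value here reflects only the variation among the 4 libraries, which could be technical. The authors' deposited table is a DESeq2 comparison of knockout with control. Whole reads in each library were recovered from the printed digits of its base means and divided by the authors' size factors to give normalized counts. The libraries are called control A, control B, knockout A and knockout B, and these letters do not map to the numbers in the labels.

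CFL1 had normalized counts of 6276 and 13761 in controls A and B and 2285 and 2487 in knockouts A and B. Both knockouts lay below both controls, and the authors' deposited table lists a log2 fold change of -2.07 (SE 0.454, DESeq2 adjusted p = 0.00168). Recovered reads totalled 12337370 to 14623618 per library. Control B stood apart from the rest. Over 17122 genes (base mean 10 or more), its log2 values correlated with the other libraries at 0.70 to 0.71, while the other 3 libraries correlated with each other at 0.98 to 0.99. KRT19, a ductal keratin, had a normalized count of 2481 in control B and 0 to 1.82 elsewhere, and KRT7, another ductal keratin, had 108 in control B and 3551 to 4000 elsewhere. The acinar markers PRSS1, CPA1 and CELA3A and the hormones INS and GCG were at 0 in every library, and the leukocyte marker PTPRC reached at most 0.885. The 4 leukocyte markers summed to 1255 in control B and to 19.1 to 20.5 elsewhere, of which the macrophage gene CD68 alone gave 1217 in control B. Of the 5 fibroblast markers, which summed to 895 to 1860 per library, LUM was at 0 throughout and the others went different ways. COL1A1 was at 1574 in control B and 354 to 687 elsewhere and COL3A1 at 279.4 against 26.4 to 69.1. PDGFRB was at 6.71 in control B and 439 to 513 elsewhere, and DCN was at 0 in control B and at most 4.43 elsewhere. The part of these differences in the Mediator values was not tested. The labels name PANC-1 for all 4 libraries, and whether both controls come from the same line was not tested. Values below that pool the 2 controls rest on control B as well as on control A, but not always equally. The DESeq2 values leaned towards the control with the higher count where the controls were far apart. MED29, at 695 and 13368 in controls A and B, had a DESeq2 value of -2.93. Its difference of mean log2(normalized count + 1), which weighs both controls equally, was -1.73. For MED12L these values were -5.89 and -3.65. The main results are therefore also given against each control alone.

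No Mediator gene passed the authors' test between CFL1 knockout and control. In the authors' deposited table, 0 of 33 members had a DESeq2 adjusted p under 0.05, against 0.559% of the 16629 genes tested. At an unadjusted DESeq2 p under 0.05 the count was 1 of 33, MED12L, against 12.6% of all genes tested in the authors' deposited table. Fold changes in the authors' deposited table were above 0 for 13 members and below 0 for 20, with a median log2 fold change of -0.16, against -0.03 over all genes tested. On recovered reads, limma called 0 of 33 members (background 0.00% of 24805 genes), and 0 of 33 had an unadjusted limma p under 0.05 (495 of 24805 genes, background 2.0%). In bulk RNA a change in the number of cells of a type and a change in RNA per cell cannot be told apart.

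The 2 controls differed more from each other than the 2 knockouts did. Between control A and control B the median absolute log2 difference was 0.45 over the members and 0.88 over those 17122 genes. Between the 2 knockouts it was 0.18 over the members and 0.16 over all genes, and 0 of 33 members differed more than 2-fold (background 4.09%). Control A differed from knockout A by a median absolute 0.22 and from knockout B by 0.10 over the members, against 0.27 and 0.24 over all genes. More than 2-fold differences between the controls were seen for 6 of 33 members (background 44.9%), of which MED18, MED8, MED12L, MED16 and MED29 were higher in control B and MED22 was lower. Against control A, the knockout mean lay more than 2-fold away for 1 member, MED12L (background 5.72%). Against control B it did so for 6 members (background 45.9%), the same 6 that differed between the controls. These comparisons share libraries, so their counts are not independent.

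**Figure D1:**
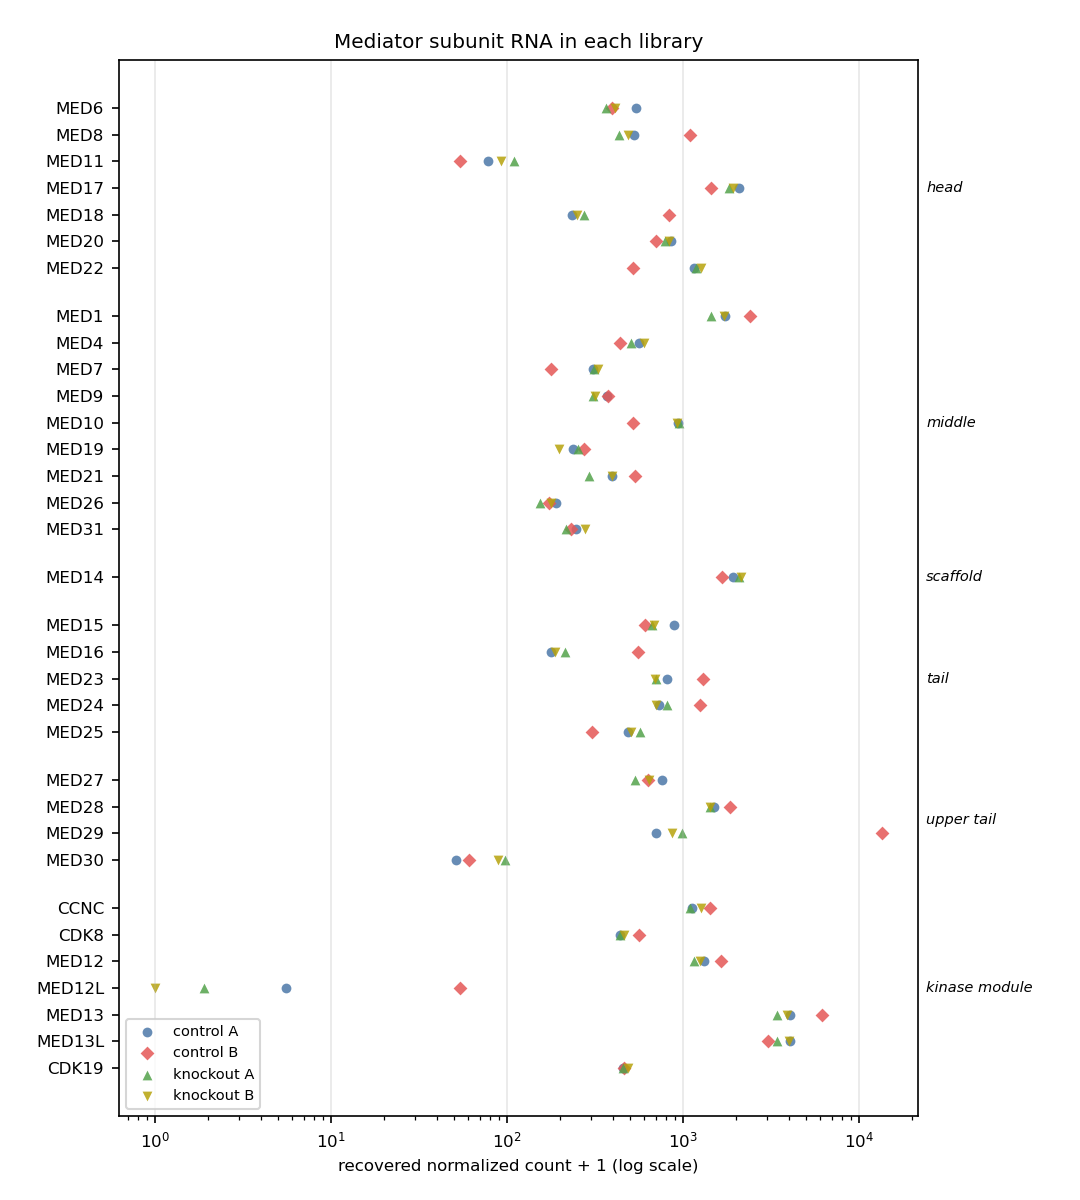
Recovered normalized count plus 1 of each Mediator gene (horizontal axis, log scale) in control A, control B, knockout A and knockout B, grouped by module. One symbol is 1 library; control B lies far to the right for MED29 (13368 against 695 to 980), while MED12L is the only member under 10 in the other 3 libraries.

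Leaving out 1 control changed the calls. Without control A, limma called 10 of 33 members (background 33.3%), with MED7, MED10 and MED22 higher in the knockouts (3 of 33, background 17.1%) and MED8, MED12L, MED16, MED18, MED23, MED28 and MED29 lower (7 of 33, background 16.2%). Without control B, limma called 0 of 33 members (background 0.00%), and 4 had an unadjusted limma p under 0.05 (background 14.1%): MED29 and MED30 were higher, and MED6 and MED15 were lower. In each of these fits the lone control was assumed to vary as the knockouts did. Without knockout A or without knockout B, limma called 0 of 33 members (background 0.00% in each). Both knockouts lay above both controls for 6 members (MED7, MED11, MED14, MED22, MED25 and MED30; background 23.7%) and below both for 9 (MED1, MED8, MED9, MED12, MED12L, MED13, MED21, MED23 and MED28; background 21.0%).

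**Figure D2:**
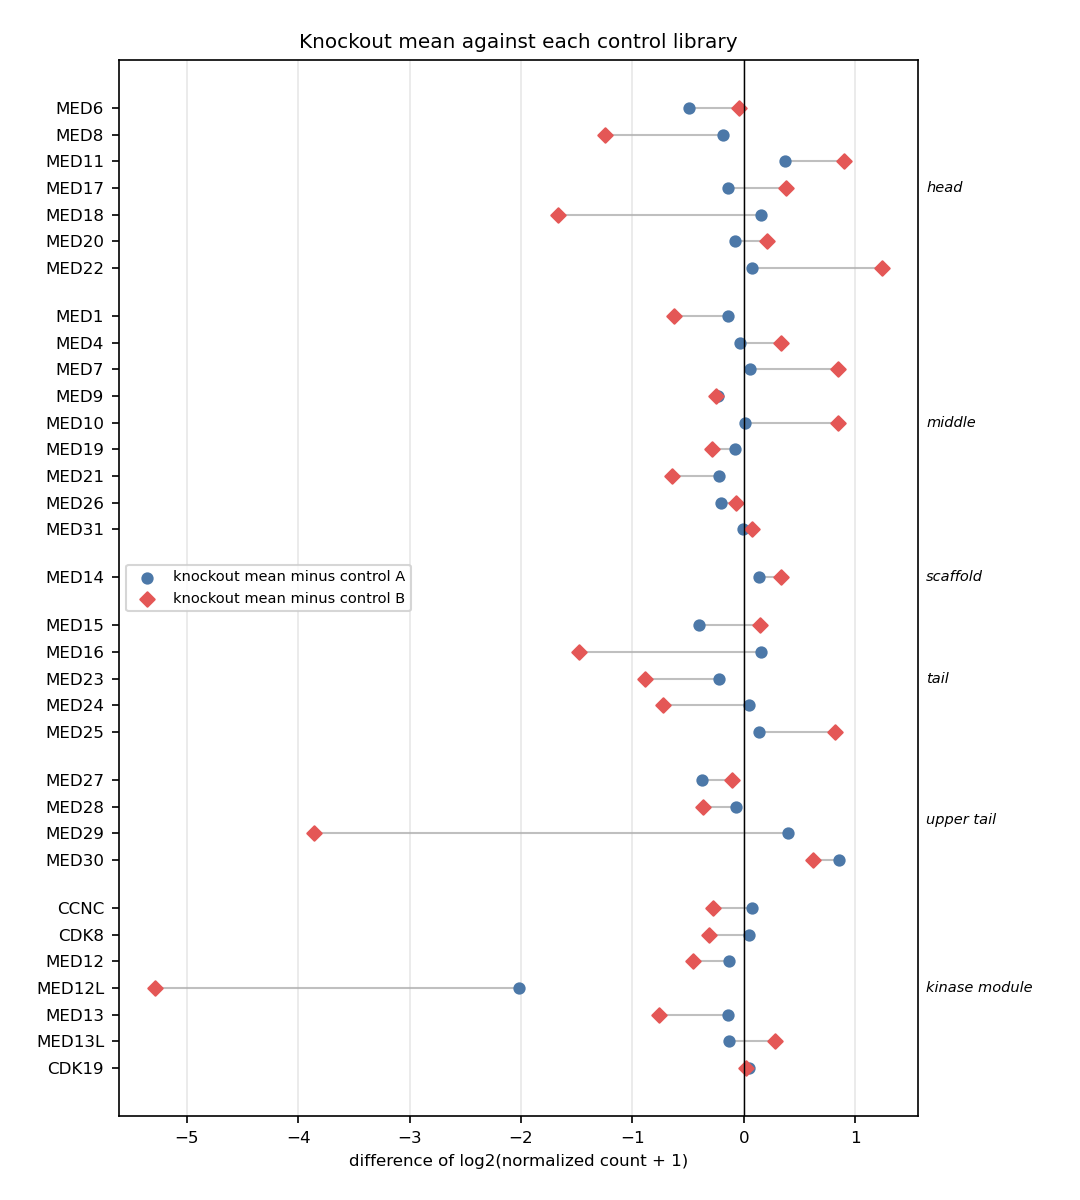
Difference of log2(normalized count + 1) between the knockout mean and control A (circles) or control B (diamonds) for each Mediator gene, with a line joining the pair and the zero line marked. Circles lie within 0.86 of 0 for every member but MED12L (-2.01), whereas diamonds reach -5.28 for MED12L, -3.86 for MED29, -1.67 for MED18 and 1.24 for MED22.

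MED29 is an upper tail subunit, also known as intersex-like after its fly counterpart. Its normalized count was 695 and 13368 in controls A and B and 980 and 861 in knockouts A and B. Control B held 19.2 times the level of control A, and the knockouts lay between the controls, close to control A. The authors' deposited table puts its log2 fold change at -2.93 (SE 1.60, DESeq2 adjusted p = 0.426). The knockout mean was 0.40 above control A on the log2 scale (limma adjusted p = 0.321 without control B) and lower than control B (log2 difference -3.86, limma adjusted p = 0.025 without control A). The direction of the MED29 difference thus depended on the control.

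The genes around MED29 on chromosome 19 had the same division of libraries. PAF1, a subunit of an elongation complex that travels with the polymerase, starts on the opposite strand 272 bases from the MED29 start, and its normalized count was 286 and 6473 in controls A and B and 404 and 398 in knockouts A and B. SUPT5H, an elongation and pausing factor, had 1972, 33352, 1843 and 1942 in the same order, and PAK4, a kinase, had 643, 4172, 831 and 765. Each of these 3 genes was several times higher in control B than in any other library. Protein-coding genes with a base mean between 10 and 10000 were placed in order along the chromosomes, 12399 in all, and MED29 lay in a run of 31 consecutive genes, SIRT2 to C19orf47, that were each more than 2-fold higher in control B than in control A. The log2 differences in the run went from 1.07 to 10.82 with a median of 3.84, and no other such run among these genes was longer than 12. FBXO27, ACP7, NCCRP1, IFNL1, IFNL2, IFNL3, LRFN1 and TTC9B of the run had normalized counts under 10 in every library but control B. They met the base mean limit only through control B, so that they were higher there was fixed by this limit. The run's length, median and top value include them. The knockout mean lay within 2-fold of control A for 29 of the 31 genes, with a median log2 difference of 0.00. Among these 29 are ACP7, LRFN1, IFNL2 and IFNL3, which had 0 reads in control A and in both knockouts. Their difference of 0 was fixed by the absence of reads, and the median is this value. The authors' deposited table calls 2 genes of the run, ACP7 and LRFN1, which were at 1813 and 339 normalized counts in control B but at 0 reads in all others. Amplification of this stretch of the long arm of chromosome 19 has been described in some pancreatic cancers and in PANC-1. DNA copy number was not measured here, and its part in these values was not tested.

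**Figure D3:**
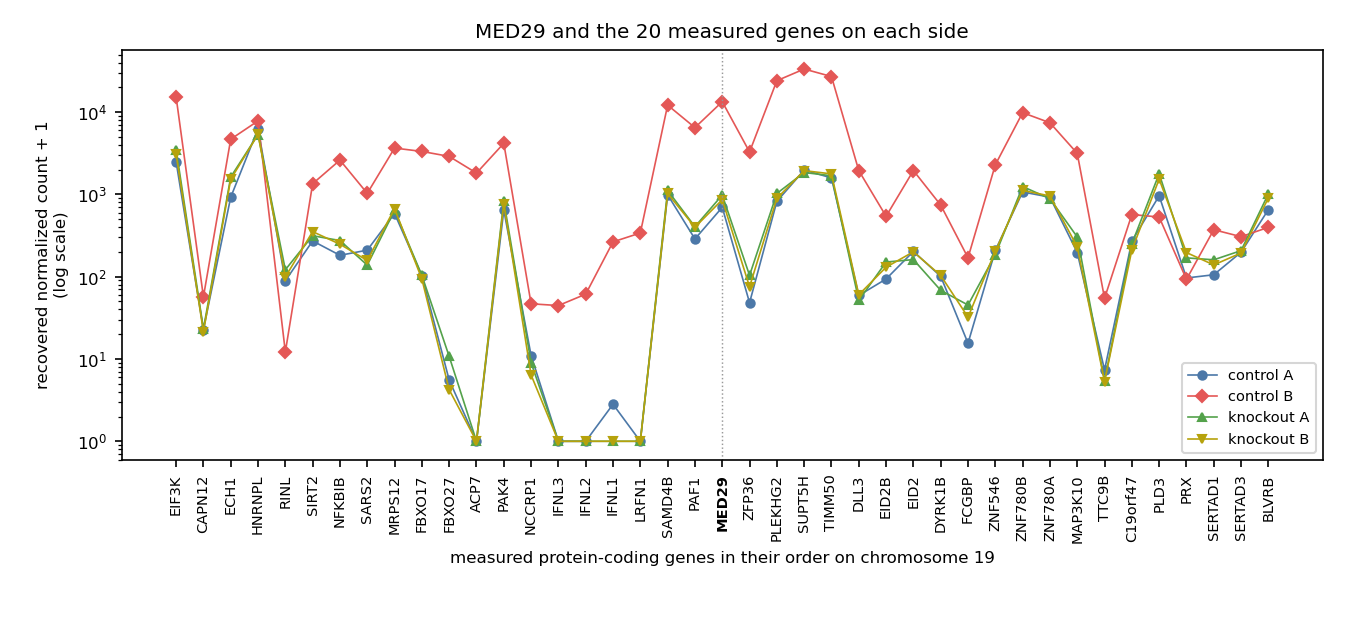
Recovered normalized count plus 1 (vertical axis, log scale) of MED29, marked by the dotted line, and of the 20 measured protein-coding genes on each side of it in their order on chromosome 19, with 1 line per library. Control B runs above the other libraries from SIRT2 to C19orf47, 31 genes, and it is also highest at EIF3K, CAPN12, ECH1 and HNRNPL before them. The other 3 lines stay together for most genes of the run but part at some, such as FCGBP (14.5, 44.3 and 31.3).

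Among the 33 members, MED29 was the only one whose 10 nearest placed genes were all more than 2-fold higher in control B (median log2 difference 4.95). Of these 10, IFNL1, IFNL2 and LRFN1 met the base mean limit only through control B. Over all placed genes 21.7% were more than 2-fold higher in control B and 21.1% more than 2-fold lower. After MED29 the next count was 7 of 10, around CDK19, whose own difference was 0.03. Around MED18 it was 6 of 10, and MED18 itself was higher by 1.83. Around MED16 and around CDK8 it was 5 of 10, with 3 of the 10 lower around MED16 and 1 around CDK8. MED16 itself was higher by 1.64 and CDK8 by 0.36. Around MED10, which was lower by 0.83, 6 of 10 neighbours were more than 2-fold lower in control B. MED12L was higher by 3.27 with 3 of 10 neighbours higher.

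The promoter of MED29 is shown because it faces that of PAF1, and those of MED12 and MED12L because these paralogues differ most in level. RefSeq windows (GRCh38.p14) run from 250 bases before to 50 bases after a start site. MED29 is chr19:39391128-39391427, MED12 is chrX:71118346-71118645 and MED12L is chr3:151085414-151085713, all on the plus strand. Capitals mark matches to 6 motifs searched on both strands, none of which overlaps another here. These were the CCAAT box, the ETS motif CCGGAAG, the YY1 motif AAGATGGC, the TATA box spelled TATAAA, the E-box CACGTG and the cyclic AMP response element TGACGTCA.
MED29: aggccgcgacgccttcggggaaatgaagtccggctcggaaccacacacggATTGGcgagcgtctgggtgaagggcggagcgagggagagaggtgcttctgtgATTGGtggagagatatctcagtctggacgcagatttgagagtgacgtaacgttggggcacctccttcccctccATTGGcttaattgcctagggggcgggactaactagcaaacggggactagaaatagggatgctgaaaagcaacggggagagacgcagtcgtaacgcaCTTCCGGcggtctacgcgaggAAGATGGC
MED12: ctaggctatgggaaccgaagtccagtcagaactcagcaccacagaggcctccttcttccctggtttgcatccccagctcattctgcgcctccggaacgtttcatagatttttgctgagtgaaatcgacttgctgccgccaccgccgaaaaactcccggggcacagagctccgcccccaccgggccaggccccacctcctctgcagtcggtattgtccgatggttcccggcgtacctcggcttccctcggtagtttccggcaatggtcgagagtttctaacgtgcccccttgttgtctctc
MED12L: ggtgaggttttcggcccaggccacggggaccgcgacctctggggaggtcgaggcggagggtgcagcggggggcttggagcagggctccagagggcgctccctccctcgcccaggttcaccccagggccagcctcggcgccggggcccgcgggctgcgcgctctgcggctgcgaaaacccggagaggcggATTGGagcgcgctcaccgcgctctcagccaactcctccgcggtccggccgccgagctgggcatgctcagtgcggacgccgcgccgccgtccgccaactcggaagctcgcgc
The MED29 window holds 24 CpG, 3 reversed CCAAT boxes, a reversed ETS match and a YY1 match at its end, and 229 of its bases also belong to the PAF1 window. The MED12 window holds 20 CpG and no match, and the MED12L window holds 39 CpG and 1 reversed CCAAT box. Windows were matched for 25 of 33 members, 30 windows in all. Their median CpG count was 21.5, against 14 over 35116 windows. The ETS motif was in 26.7% of member windows and 10.3% of all, YY1 in 16.7% and 2.89%, and CCAAT in 36.7% and 34.6%. TATA was in 6.67% and 11.5%, the E-box in 6.67% and 7.26%, and the cyclic AMP element in 3.33% and 1.85%. A match describes letters in these windows, and binding was not measured.

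The kinase module contains the kinase CDK8 or its paralogue CDK19, cyclin C (CCNC), MED12 or MED12L, which activates the kinase, and MED13 or MED13L, which links the module to the core. MED12L was the member with the smallest p. It gave 5 and 47 reads in controls A and B and 1 and 0 reads in knockouts A and B, for which the exact 95% Poisson intervals are 1.62 to 11.7, 34.5 to 62.5, 0.0253 to 5.57 and 0 to 3.69 reads. Both knockouts lay below both controls at this low level. Summed over libraries, the ratio of controls to knockouts was 53.6 (exact 95% interval 9.21 to 2158), for control A alone 9.35 (1.05 to 442) and for control B alone 108 (18.5 to 4357). These intervals cover counting error only. In the authors' deposited table the MED12L log2 fold change was -5.89 (SE 2.09, DESeq2 p = 0.00485, adjusted p = 0.193). Its limma adjusted p was 0.722 with all libraries, 0.0488 without control A and 0.424 without control B.

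The other kinase module genes were expressed at far higher levels than MED12L. MED12 had 1308 and 1642 in controls A and B and 1144 and 1246 in knockouts A and B, so both knockouts were below both controls by a small margin (log2 fold change -0.30, SE 0.242, DESeq2 adjusted p = 0.595, per the authors' deposited table). The knockout mean differed by -0.13 from control A and by -0.46 from control B on the log2 scale. MED13 had 4006, 6132, 3401 and 3861 in the same order of libraries. MED13L had 4041, 3040, 3386 and 4004. MED13 and MED13L were the most highly counted members outside MED29 in control B, and between the controls they differed in opposite directions. CDK8 had normalized counts of 434 and 557 in controls A and B and 435 and 462 in knockouts A and B. CDK19 had 451, 462, 452 and 483, and CCNC had 1116, 1424, 1091 and 1260. For CDK8 and CCNC the knockouts overlapped the controls. CDK19 had the smallest spread of the module: the authors' deposited table lists a log2 fold change of 0.03 (SE 0.224, DESeq2 adjusted p = 0.948).

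Paralogues were also compared within each library. The log2 ratio of CDK19 to CDK8, from normalized counts plus 1, was 0.06 and -0.27 in controls A and B and 0.05 and 0.07 in knockouts A and B. The MED13L to MED13 ratio was 0.01, -1.01, -0.01 and 0.05. In both pairs control B had the lowest ratio and the other 3 libraries lay within 0.06 of each other. The MED12L to MED12 ratio was -7.88, -4.94, -9.25 and -10.28, with both knockouts lowest. With MED12L at 1 and 0 reads in the knockouts, those values rest largely on the added 1 and on the MED12 level. Knockouts minus controls, the differences were 0.17, 0.52 and -3.35 for the CDK19, MED13L and MED12L pairs, with two-sided exact permutation p of 0.667, 0.667 and 0.333 and 0.667 for each after adjustment over the 3 ratios. With 2 against 2 libraries the smallest p this test can give is 0.333.

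In the head, which contacts the polymerase and the initiation factors, MED17 is the central subunit. It had normalized counts of 2056 and 1434 in controls A and B and 1821 and 1902 in knockouts A and B, with the knockouts between the controls. MED18 and MED20 form the movable jaw with MED8. MED18 had 233, 827, 271 and 249 in the same order, with control B at 3.55 times the level of control A. MED8 had 521, 1083, 429 and 485, and MED20 had 850, 695, 785 and 824. MED18 and MED8 were thus high in control B alone, and only MED8 also had both knockouts below control A. MED11 and MED22 pair with each other in the head. MED22 had 1151, 514, 1171 and 1258, and MED11 had 76.3, 52.5, 108 and 90.6. For both genes the knockouts lay above both controls, and for MED22 the gap to control A was 0.08 on the log2 scale. MED6, at the contact of head and middle, had 540, 395, 362 and 407. Control A was the high library for MED6, with the other 3 together. In the authors' deposited table the head's log2 fold changes had a median of 0.06, with 4 members above 0 and 3 below. The head's median log2 difference was -0.08 against control A alone (3 above 0, 4 below) and 0.21 against control B alone (4 above, 3 below).

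MED14, the scaffold, had normalized counts of 1909 and 1662 in controls A and B and 2063 and 2128 in knockouts A and B. Both knockouts were above both controls, by a log2 fold change of 0.23 (SE 0.195, DESeq2 adjusted p = 0.615) per the authors' deposited table, and by 0.13 against control A and 0.33 against control B. Among the middle subunits, MED1 binds nuclear receptors and is a marker of super-enhancers in chromatin studies. MED1 had 1718, 2402, 1434 and 1694 in the same order of libraries, with both knockouts below both controls (log2 fold change -0.40, SE 0.293, DESeq2 adjusted p = 0.566, from the authors' deposited table). The MED1 knockout mean differed by -0.14 from control A and by -0.62 from control B on the log2 scale. Knockout B differed from control A by less than the 2 knockouts differed from each other. MED7 and MED21 form the hinge of the middle module. MED7 had 305, 175, 308 and 326, and MED21 had 394, 528, 290 and 391. MED10 had 925, 519, 939 and 924, and MED31 had 244, 230, 213 and 276. MED7 and MED10 were low in control B alone. MED4 had 562, 435, 500 and 600, MED9 had 365, 370, 306 and 315, and MED19 had 234, 270, 250 and 196. MED9 was the middle subunit with the closest controls, and its knockouts lay below them by a log2 fold change of -0.24 (SE 0.241, DESeq2 adjusted p = 0.665, per the authors' deposited table), and the knockout mean lay -0.23 from control A and -0.25 from control B. MED26, which recruits the super elongation complex, had 189, 172, 151 and 177 with overlapping groups. The middle's 9 log2 fold changes in the authors' deposited table had a median of -0.14, 4 above 0 and 5 below. The median was -0.08 against control A alone and -0.07 against control B alone.

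In the tail, MED15 binds SREBP and SMAD factors. It had normalized counts of 889 and 607 in controls A and B and 661 and 683 in knockouts A and B, so control A alone was high. MED16, MED23 and MED24 lie together in the tail, and MED23 is the target of the ELK1 factor. MED16 had 177, 553, 212 and 184 in the same order, MED23 had 811, 1284, 700 and 688, and MED24 had 728, 1248, 808 and 702. All 3 were highest in control B, and MED23 alone of them had both knockouts below control A. MED25, bound by viral and ETS-family activators, went the other way with 484, 301, 566 and 500. The tail's 5 log2 fold changes in the authors' deposited table had a median of -0.39 with 4 below 0. Against control A alone the tail's median log2 difference was 0.05, and against control B alone it was -0.73.

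The remaining upper tail subunits join head and tail. MED30 had normalized counts of 49.99 and 59.2 in controls A and B and 95.6 and 87.3 in knockouts A and B. Both knockouts were above both controls, and the controls were closer to each other than to the knockouts. The authors' deposited table puts its log2 fold change at 0.75 (SE 0.441, DESeq2 adjusted p = 0.469), from 53 to 108 reads per library. On the log2 scale the MED30 knockout mean exceeded control A by 0.86 and control B by 0.62, with limma adjusted p of 0.285 without control B and 0.0981 without control A. MED27 had 753, 627, 529 and 637, and MED28 had 1492, 1833, 1417 and 1423. For MED28 both knockouts lay just below control A, and for MED27 control B lay between them.

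Summed normalized counts of the 33 members were 29709 and 44952 in controls A and B and 27278 and 29324 in knockouts A and B. MED29 made up 2.34%, 29.7%, 3.59% and 2.93% of these sums. Without MED29, an alternative chosen after the values were seen, the sums were 29014, 31585, 26298 and 28463, so that control B stood 1.09 times above control A in place of 1.51 times. The kinase module then held 39.2%, 42.1%, 37.7% and 39.8% of the sum, and the head 18.7%, 15.8%, 18.8% and 18.3%. The scaffold MED14 held 6.58%, 5.26%, 7.85% and 7.48%.

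**Figure D4:**
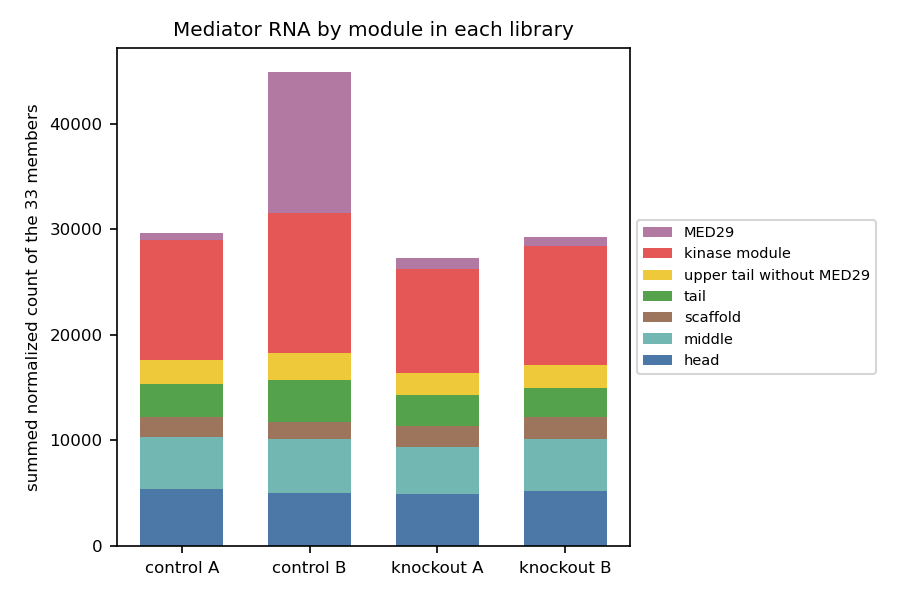
Summed normalized counts of the 33 Mediator genes (vertical axis, from 0) in each library, 1 bar per library, stacked by module with MED29 drawn on its own. The MED29 segment is 29.7% of the control B bar and 2.34% to 3.59% of the others.

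Levels between genes were compared as normalized counts per kilobase of the longest protein-coding transcript. On this scale, with the median of control A and both knockouts, MED10 was highest at 811, followed by CCNC at 451, MED27 at 445, MED17 at 370 and MED13 at 369. CCNC ranged from 441 to 509 and MED27 from 370 to 526 over these 3 libraries, so their order was within their spread, and the same held for MED17 and MED13. The lowest members were CDK19 at 72.3, MED26 at 55.7, MED16 at 53.9 and MED12L at 0.0824. In control B the highest was MED29 at 3659 per kilobase, and MED13 came next at 586. With the median of control A and both knockouts, CDK8 lay at 142 per kilobase against 72.3 for CDK19. The counts of these 2 genes were close, and the gap came from their longest transcripts of 3055 and 6246 bases. Which transcripts were expressed was not measured. The table holds 20 pseudogenes or antisense genes named after members, and 5 of these were detected, the highest being MED14OS with a base mean of 6.13 in the authors' deposited table.

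The complexes that Mediator works with were read from lists in the same way. In the authors' deposited table, 0 of 12 RNA polymerase II subunits passed the DESeq2 test and 1 had an unadjusted p under 0.05, beside 0.559% and 12.6% of all genes tested. The same shares apply to the 4 lists that follow. That was POLR2A, the catalytic subunit, with normalized counts of 3698 and 11019 in controls A and B and 3134 and 3152 in knockouts A and B (authors' deposited table: log2 fold change -1.23, DESeq2 adjusted p = 0.345). It was high in control B, as MED29 and MED18 were. Among the subunits higher in the knockouts POLR2D had the smallest p. Its normalized counts were 1668 and 1578 in controls A and B and 2033 and 1948 in knockouts A and B. The authors' deposited table gives POLR2D a log2 fold change of 0.29 (DESeq2 adjusted p = 0.467). None of the 31 general transcription factors tested passed (0 of 31), with GTF2H3 at a log2 fold change of 0.44 (DESeq2 adjusted p = 0.469) and GTF2A2 at -0.52 (0.426) per the authors' deposited table, and 0 had an unadjusted p under 0.05. Of 10 cohesin and loader genes, which join Mediator at enhancers, 0 passed and 0 had an unadjusted p under 0.05. SMC3 and STAG1 had the smallest p in each direction, at 0.65 and -0.70 on the log2 scale per the authors' deposited table. In controls A and B and knockouts A and B, SMC3 had 3464, 1517, 3861 and 3946. STAG1 had 1382, 2956, 1372 and 1301. Control B stood apart for both genes, and against control A alone the knockout mean differed by 0.17 and -0.05. The super elongation complex, which MED26 recruits, had 0 of 11 passing and 2 at an unadjusted p under 0.05. By the authors' deposited table these were MLLT1, with a log2 fold change of 0.62 (DESeq2 adjusted p = 0.380), and CCNT2, with -0.49 (DESeq2 adjusted p = 0.328). Of 11 tested activators (12 listed) that bind single Mediator subunits, 0 passed and 0 had an unadjusted p under 0.05. SMAD3, which binds MED15, had 1288, 13200, 1287 and 1312 in the same order of libraries, so control B alone was high, and SREBF1 had a log2 fold change of 0.44 (DESeq2 adjusted p = 0.477) per the authors' deposited table.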

How the data were processed

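RNA of PANC-1 cells with an RNA integrity number of at least 7.0 was sequenced on an Illumina NovaSeq instrument, per the labels' protocols. Per the submitters' processing notes, the tools were STAR, RSEM, cutadapt and FastQC and the build hg19, with no versions or order. Strand handling is not given in the sources used here. The deposited file is the authors' DESeq2 result table. Base means are a signal (counts over size factors, averaged across libraries), per the file headers. The authors' fold changes and standard errors are on the log2 scale, the deposited Wald score is their quotient, and the deposited p-values are unadjusted and Benjamini-Hochberg adjusted.

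Whole reads were recovered where 4 whole numbers times the size-factor steps gave a base mean within its 15 printed digits and, for group means of at least 3, the deposited fold change within 0.0001 log2. This gave reads for 30643 of 30662 genes with a base mean under 10000 (33 of 33 members), and 169 genes at or above 10000 were left out. The fold change was met within this tolerance for 32 members. MED12L, with a knockout mean below 3, was accepted on the digits alone, and its implied fold change was off by 0.028 log2. Of 600 base means shifted on purpose, 1 gave a solution. The sign of the contrast for 1-read genes gave each library's group. RSEM estimates counts, so these reads are rounded estimates and similar genes may share reads.

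limma 3.58.1 (R 4.3.3) with a trended prior was fitted to log2(normalized count + 1) where the mean count reached 1. This scale understates fold changes of weakly expressed genes. It used Benjamini-Hochberg adjustment over all genes fitted. Tested on simulated reads of 23768 genes with knockout and control libraries, limma found 98 of 100 genes with a 2-fold change, 100 of 100 with a 4-fold change and called 6 unchanged genes, and 300 of 300 read sets were recovered correctly. The simulated spread was fixed for all genes, changed genes were drawn from well-read genes only, and no simulated library stood apart as control B does. On the real libraries limma called 0 of 24805 genes, so the simulated shares do not measure power for the members. Alternatives were pseudocount 0.1, a mean of at least 10, voom, TMM, library totals, other thresholds and leaving out each library. Library totals are sums of recovered reads, without the 169 genes at or above a base mean of 10000.

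Named genes are the 33 members, CFL1 and, from each partner list, the called genes or else the gene with the smallest p in each direction. The neighbours of MED29 and the markers printed were chosen after their values were seen. The members and lists were chosen with earlier results of these data known. Gene order and transcript lengths came from RefSeq (GRCh38.p14) and GENCODE, and no hg19 coordinates are given.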

Additional observations from a re-analysis of the deposited data

How the results depend on the processing

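In the authors' deposited table, 0 members were called at a DESeq2 adjusted p under 0.01 or 0.1. The same held over every gene with a p-value and at a base mean of at least 10 or 100. At an unadjusted DESeq2 p under 0.05, 1 member was called, against 12.6% of all genes tested. limma called 0 members with pseudocount 0.1, a mean of at least 10, voom, TMM or library totals. Its calls with 1 library left out are given above, each beside the share over all genes. The members' median log2 difference was -0.14 and ranged from -0.21 to -0.072 when 1 library was left out. It moved to -0.0071 under library totals of recovered reads, which raise the median of all genes by 0.13. Members with both knockouts above both controls numbered 6, or 7 to 12 when 1 library was left out, and those below 9, or 11 to 16. Over all genes the shares rose from 23.7% to between 30.3% and 47.2% above and from 21.0% to between 27.1% and 45.8% below, since fewer libraries have to be separated. Library totals turned the direction of CCNC, CDK8 and MED15, leaving out control B that of 11 members, control A that of MED15, and knockout B that of CDK19, MED13L and MED31. TMM, pseudocount 0.1, setting the median of all genes to 0 and leaving out knockout A turned none of the 33. With 1 library left out, the group differences of the log2 ratios ranged from 0.0040 to 0.33 for CDK19 to CDK8, 0.01 to 1.04 for MED13L to MED13 and -4.83 to -1.88 for MED12L to MED12. No paired analysis was possible because the deposited table has no column per library and the recovered libraries cannot be tied to the replicate numbers in the labels. With 12337370 to 14623618 recovered reads per library, MED12L, at 0 to 47 reads, is the only member with fewer than 47 reads in any library.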
